A study of Arabidopsis thaliana with 6 samples.

Results

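The genes described here are protein-coding loci that lie in the blocks around the 5 centromeres of Arabidopsis thaliana, among the transposons and pseudogenes that make up most of the pericentromeric heterochromatin. They were taken by position and annotation, under a rule set with earlier results of these data known. A probe set, the group of array probes that reports 1 transcript, was taken when it named a single gene of RefSeq type protein-coding with a locus tag between AT1G32000 and AT1G46000, AT2G04000 and AT2G16000, AT3G29500 and AT3G44000, AT4G03400 and AT4G09000, or AT5G27500 and AT5G37500. QQS, which lies in the block of chromosome 3, was left out by name. This gave 849 genes of the 13286 that the array reports singly, read by 858 of the 22746 probe sets tested. RefSeq places 2153 protein-coding loci in the blocks, so many of them were not analysed here.

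RNA came from unopened flower buds. The plants were kept in soil under long days of 18 hours, at 23 °C. Of the 6 arrays, 3 were of wild type Columbia plants and 3 of ddm1 mutants in the F6 inbred generation. The labels name no ddm1 allele and give no inbred generation for wild type, so loss of DDM1 and the inbreeding history of the mutant line cannot be told apart. They call the replicates biological without saying whether plants were pooled.

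In plant nuclei the DNA around the centromeres is packed into heterochromatin, which carries dense DNA methylation and histone H3 methylated at lysine 9, and keeps transposons silent. DDM1 is a chromatin remodelling protein of the SNF2 family that gives the DNA methyltransferases access to nucleosomes there. In its absence methylation is lost from heterochromatin and many transposons are transcribed. Protein-coding genes that sit inside heterochromatin share their surroundings with these transposons, and setting ddm1 beside wild type shows which of them changed in RNA abundance.

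The deposited log2 expression values were centred by the authors, probe set by probe set, on a baseline they do not name in the labels. A value of 0 is that baseline, not absence of the transcript, so levels of different genes cannot be compared. Differences are ddm1 minus wild type, ± the limma standard error (SE), from 3 arrays of each genotype. A probe set was called at a limma adjusted p under 0.05 (Benjamini-Hochberg over all 22746 probe sets). The RNA is from whole buds, in which a change in the number of cells that express a gene and a change per cell cannot be told apart. DDM1 itself and 8 of 8 listed floral identity genes were not analysed here, so neither the genotype nor the tissue label was checked by a transcript. Over all probe sets the array medians ran from -0.00642 to 0.0175, and the SD of the difference between replicate arrays ran from 0.177 to 0.194 in wild type and from 0.243 to 0.300 in ddm1.

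The blocks are mixed in composition. The share of pseudogene-type loci, the RefSeq class that holds annotated transposon genes, was counted in a window of 25 consecutive annotated loci centred on each gene. Its median was 28% over the 858 probe sets, with quartiles of 16% and 44%, against a median of 0% for 11584 protein-coding probe sets outside the blocks. For 183 probe sets (21.3%) it was 50% or more, and for 414 (48.3%) it was under 25%. The label of heterochromatin therefore describes the blocks better than every gene in them: 31 probe sets had no pseudogene-type locus in their window. On chromosome 3 the median gene stood in a window of 56%, compared with 16% on chromosome 1, 24% on chromosomes 2 and 4 and 32% on chromosome 5.

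Most protein-coding genes of the blocks differed little between the genotypes, a few rose steeply in ddm1, and others fell modestly. Higher values in ddm1 were called for 32 of the 858 probe sets (3.73%), and lower values for 36 (4.2%). Over all probe sets tested 3.5% were higher and 5.68% lower, so both shares were near that background. A change of at least 2-fold was called for 16 probe sets upward (1.86%, against 1.67% over all probe sets) and 7 downward (0.816%, against 1.72%). The arrays of the 2 genotypes did not overlap for 197 of the 858 (23%), compared with 27.2% over all probe sets. For 693 probe sets (80.8%) the difference was smaller than 0.25 in either direction. The share was near that elsewhere, at 77.6% over all probe sets and 79.3% for protein-coding ones outside the blocks.

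Beside other protein-coding genes the balance of strong calls was different, while the medians were alike. Outside the blocks 244 of 11584 probe sets rose (2.11%) and 650 fell (5.61%), of which 68 rose at least 2-fold (0.587%) and 209 fell at least 2-fold (1.8%). Groups did not overlap there for 25.4%. The median difference was 0.0096 inside the blocks, -0.00011 outside and 0.0045 over all probe sets. Differences above 0 made up 63.5% inside, 49.9% outside and 52.3% over all probe sets. The shift behind this share is small. Leaving out 1 array moved the median inside the blocks between -0.0034, without ddm1 replicate 3, and 0.019, without ddm1 replicate 1. The lower quartile was -0.064 inside and -0.136 outside, and the upper quartile 0.036 and 0.035. The pseudogene-type loci of the same blocks were the class with the largest share of rises of those counted here, with 176 of 702 probe sets higher by limma (25.1%), 165 of them at least 2-fold (23.5%), and 1 lower (0.142%). Among plain _at probe sets, the type designed for 1 transcript, the strong rises were 85 of 560 (15.2%), compared with 38 of 78 _s_at (48.7%) and 42 of 64 _x_at (65.6%), types whose probes may match several related transcripts. Over all 702, groups did not overlap for 35.5%. Of 22 transcribed pseudogenes in the blocks, 2 rose at least 2-fold (9.09%). These shares are set side by side as a description, and no test of the difference between classes was made. The wild type arrays were also flatter inside the blocks, with a median SD per probe set of 0.0321 against 0.0651 for protein-coding probe sets outside. Whether more of these genes lie near background is not known from centred values, and its part in the smaller share of falls was not tested.

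**Figure D1:**
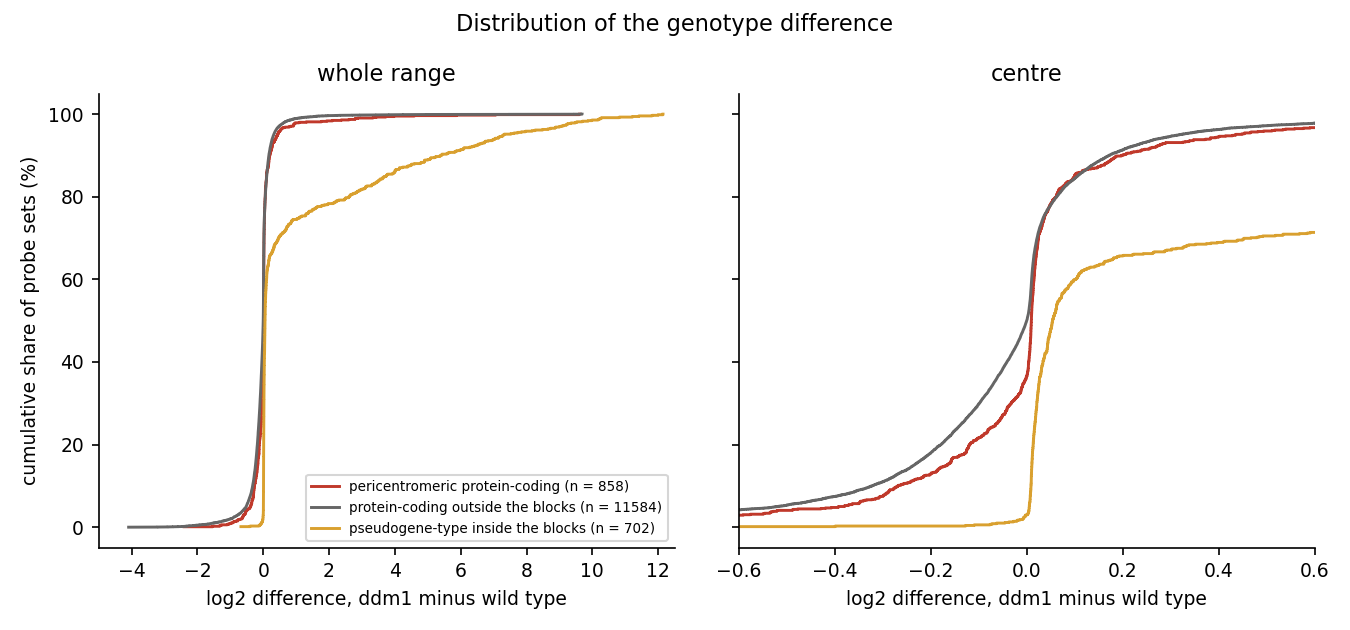
Cumulative share of probe sets (vertical axis, %) by their log2 difference, ddm1 minus wild type (horizontal axis), over the whole range on the left and the centre on the right. Over the whole range the line of the 858 pericentromeric protein-coding probe sets runs close to that of the 11584 outside the blocks. In the centre they part slightly, with 63.5% of the 858 above 0 against 49.9% outside, and medians of 0.0096 and -0.00011. The line of the 702 pseudogene-type probe sets lies to the right, 165 of them being higher at least 2-fold.

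The counts of small changes moved when 1 array was left out, and those of strong rises moved less. Such fits also have fewer arrays and less precision. Whether a lost call reflects that or the array dropped was not tested. The 32 higher probe sets became 17, 20 and 21 when wild type replicate 1, 2 or 3 was left out, and 32, 30 and 36 when ddm1 replicate 1, 2 or 3 was left out. The 36 lower ones became 16, 17 and 15 without a wild type array and 21, 21 and 20 without a ddm1 array. The 16 strong rises varied from 13 to 18 in these fits. The 7 strong falls varied from 4, without ddm1 replicate 1, to 8.

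Calls were found in every block. Strong rises numbered 4 of 253 probe sets on chromosome 1 (1.58%), 3 of 229 on chromosome 2 (1.31%), 2 of 103 on chromosome 3 (1.94%), 3 of 115 on chromosome 4 (2.61%) and 4 of 158 on chromosome 5 (2.53%). Over all probe sets the share was 1.67%, within the range of the blocks. For protein-coding probe sets on the same chromosomes outside the blocks it lay between 0.493% and 0.732%. Strong falls numbered 3 (1.19%), 1 (0.437%), 1 (0.971%), 2 (1.74%) and 0 on chromosomes 1 to 5, against 1.72% over all probe sets. The block medians lay between 0.0068 on chromosome 5 and 0.012 on chromosome 3. Among the pseudogene-type loci the order of the chromosomes was not the same: 27.3% rose at least 2-fold on chromosome 1, 26% on chromosome 2, 21.4% on chromosome 3, 21.3% on chromosome 4 and 17.5% on chromosome 5.

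**Figure D2:**
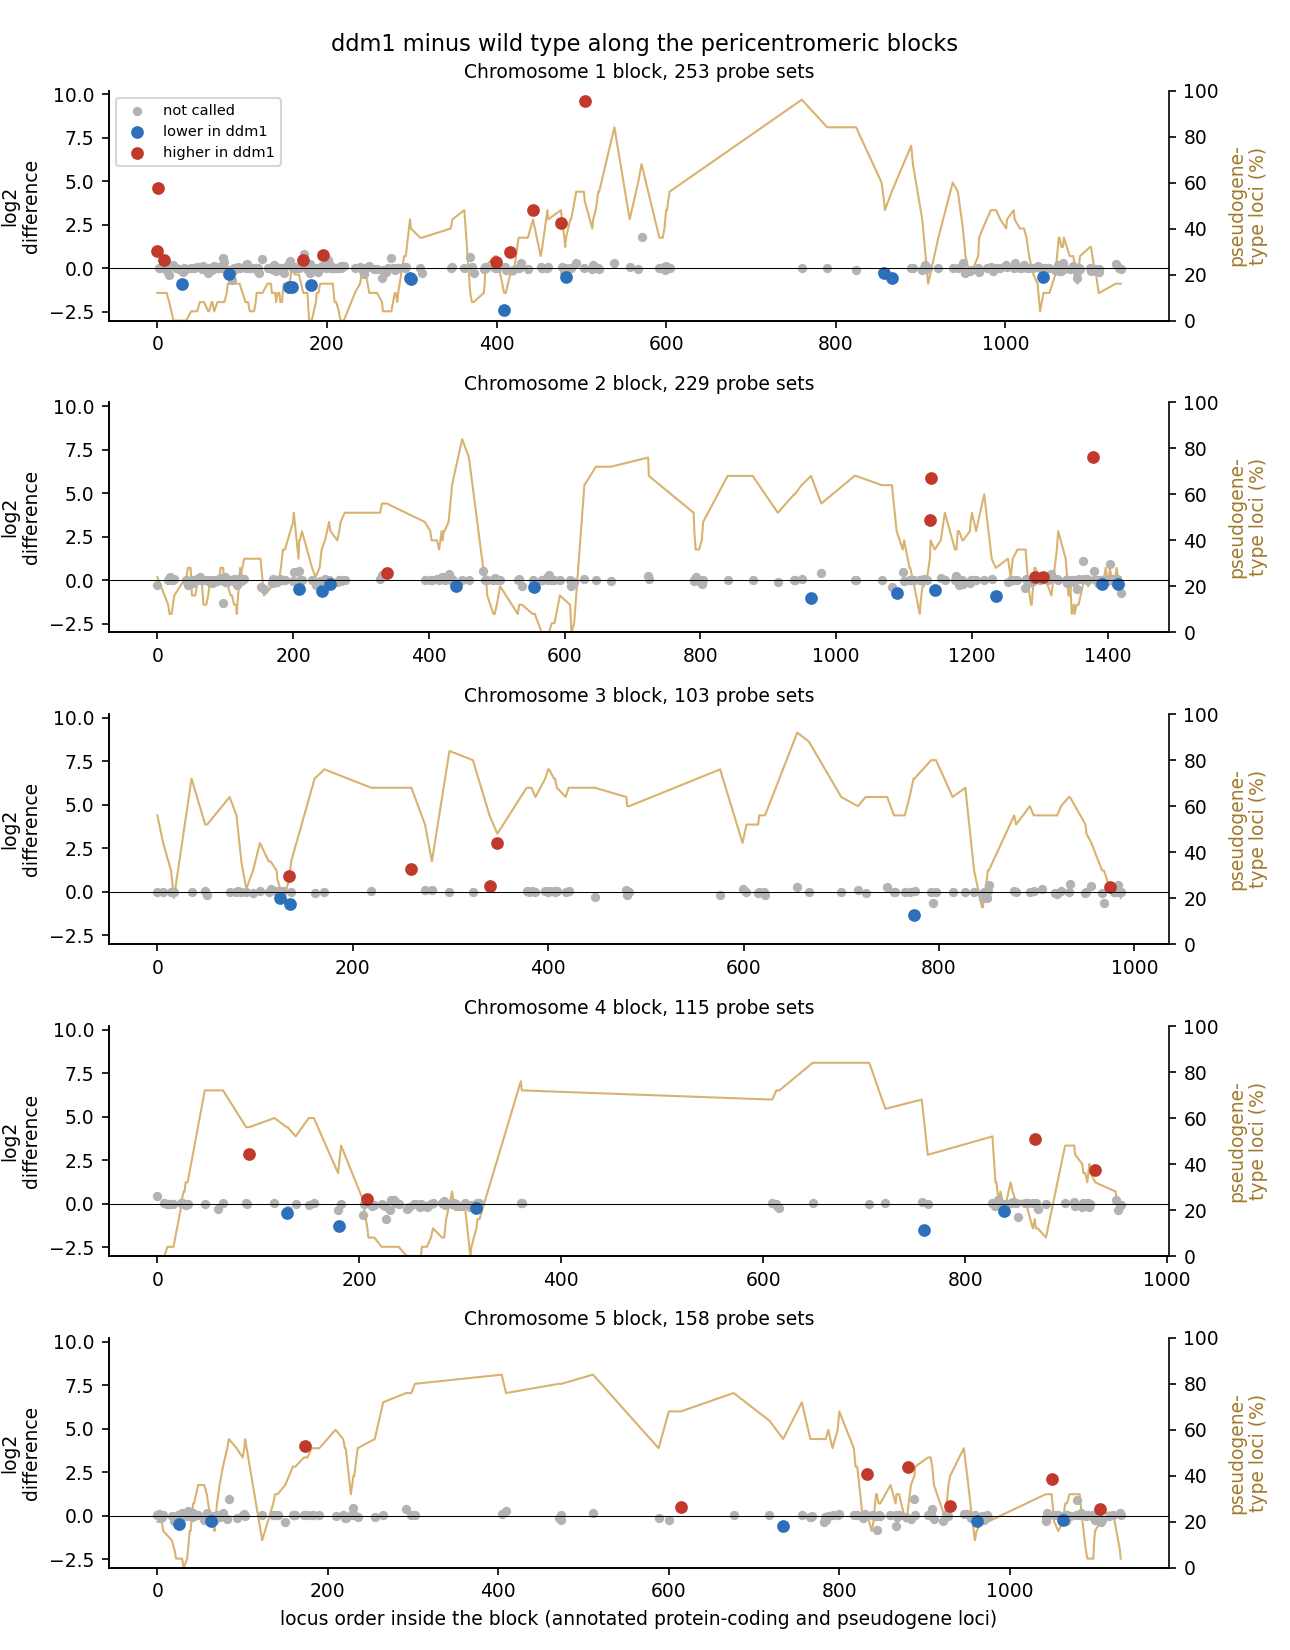
Log2 difference, ddm1 minus wild type (left axis), of each probe set in the order of annotated loci along the 5 blocks, with called probe sets in colour. The brown line (right axis) joins, from gene to gene, the share of pseudogene-type loci in the window of 25 loci; the 16 strong rises are spread over all 5 blocks, and 3 of them stand where that share is 50% or more.

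The steepest rise was at AT1G36240 on chromosome 1, in a window of 52% pseudogene-type loci. The wild type arrays read -7.30, -6.86 and -6.84, and the ddm1 arrays 2.59, 2.60 and 2.64. The groups were far apart and the ddm1 arrays nearly identical (SD 0.0299), for a difference of 9.61 ± 0.13 SE (adjusted p = 1.38e-06). AT2G15560 on chromosome 2 followed, with wild type arrays at -4.74, -4.07 and -4.27 and ddm1 arrays at 2.97, 2.65 and 2.48. It rose by 7.06 ± 0.21 (adjusted p = 2.96e-05). At both genes wild type lay well below the baseline and ddm1 above it. Among the 16 strong rises the wild type mean was within 0.5 of the baseline for 11 and below it by more for 5.

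AT2G13770 and its direct neighbour AT2G13760 rose together. AT2G13770 stood at -0.04, -0.03 and 0.00 in wild type and at 5.63, 5.76 and 6.16 in ddm1, a rise of 5.87 ± 0.14 (adjusted p = 1.07e-05). AT2G13760 stood at -0.18, -0.19 and 0.00 in wild type and at 3.61, 2.97 and 3.34 in ddm1, a rise of 3.43 ± 0.17 (adjusted p = 0.000271). They were read by an _s_at and an _x_at probe set, so the values may combine loci. A pseudogene-type neighbour, AT2G13750, read by a plain _at probe set, rose by 1.98 ± 0.16.

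A second pair of neighbours stood at the outer edge of the chromosome 1 block, where 12% of loci were of pseudogene type. AT1G32010 was at -1.23, -1.21 and -1.18 in wild type and at 3.48, 3.37 and 3.29 in ddm1. It rose by 4.59 ± 0.06 (adjusted p = 8.36e-07), and it too was read by an _s_at probe set. AT1G32000 rose by 0.97 ± 0.19 (adjusted p = 0.0365), with 1.24, 0.53 and 1.05 in ddm1 and -0.06, -0.03 and 0.00 in wild type. Its call was not stable: over the 13 other fits its adjusted p ran from 0.00203 to 0.126, and 8 of them lost it. It was lost on leaving out any wild type array (adjusted p = 0.121, 0.101 and 0.101 for replicates 1 to 3), ddm1 replicate 1 (0.0685) or ddm1 replicate 3 (0.111). Of directly adjacent genes 2 more pairs were called, and they were picked out after their values were seen. AT1G34630 and AT1G34640 both fell (-0.58 and -0.60), and each call ended on dropping wild type replicate 1 (adjusted p = 0.0861 and 0.0734) or 3 (0.0519 and 0.0611). AT1G34630 also lost it without wild type replicate 2 (0.0747) or ddm1 replicate 2 (0.0618), and AT1G34640 without ddm1 replicate 3 (0.0625). AT3G30370 rose (0.92 ± 0.07) and kept its call without any 1 array, while the adjacent AT3G30380 fell (-0.70 ± 0.15) and lost its call without each of the 6 arrays (adjusted p from 0.0602 to 0.131).

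Other rises of more than 8-fold were at AT5G28560, AT4G08430 and AT1G35710. AT5G28560 went from wild type readings of -0.12, -0.11 and -0.02 to 3.66, 4.10 and 3.91 in ddm1 (3.97 ± 0.11, adjusted p = 2.48e-05). AT4G08430 went from wild type readings of -1.34, -0.99 and -0.98 to 2.71, 2.43 and 2.72 in ddm1 (3.72 ± 0.13, adjusted p = 6.49e-05). In both the replicates of each genotype lay close together and the groups did not overlap.

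AT1G35710, AT4G08850 and AT5G35735 differed from these in the spread among mutant arrays. AT1G35710 was at -0.10, -0.03 and -0.08 in wild type and at 3.73, 4.04 and 2.03 in ddm1, a rise of 3.34 ± 0.54 (adjusted p = 0.0221). AT4G08850, the only gene of the fixed defence list that was measured (1 of 17), was at -0.01, -0.34 and 0.00 in wild type and at 2.39, 2.05 and 0.99 in ddm1 (1.93 ± 0.38, adjusted p = 0.0383). AT5G35735 was at -1.01, -1.01 and -0.72 in wild type and at 2.35, 2.27 and 1.01 in ddm1 (2.79 ± 0.38, adjusted p = 0.0135). In all 3 genes ddm1 replicate 3 was the lowest mutant array, though above every wild type array. Over the 16 strong rises, these 3 included, it was the lowest mutant array in 5. The ddm1 SDs of the 3 genes were 1.08, 0.730 and 0.752, compared with a median of 0.263 over the 16 strong rises. Dropping wild type replicate 1 ended all 3 calls (adjusted p = 0.0818, 0.112 and 0.0594), as did dropping replicate 2 (0.0691, 0.110 and 0.0519). Those of AT1G35710 and AT4G08850 were also lost without wild type replicate 3 (0.0734 and 0.0999), ddm1 replicate 1 (0.0670 and 0.0758) or ddm1 replicate 2 (0.0501 and 0.108). Over the 13 other fits adjusted p ran from 0.000318 to 0.0938 for AT1G35710, from 0.00216 to 0.131 for AT4G08850 and from 0.000667 to 0.0787 for AT5G35735.

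The remaining strong rises were between 2.47-fold and 7.32-fold. THI2.2 encodes a thionin, a class of small cysteine-rich antimicrobial peptide, and is the 1 gene among the 16 with a RefSeq symbol. It was at -0.55, 0.00 and -0.04 in wild type and at 1.86, 1.71 and 2.16 in ddm1, a rise of 2.11 ± 0.19 (adjusted p = 0.00313). Quantile normalization ended this call (adjusted p = 0.0569, the highest of 13 other fits, the lowest being 0.00131). AT4G03950 (2.87 ± 0.18), AT3G31910 (2.80 ± 0.29), AT1G36020 (2.61 ± 0.11) and AT5G35480 (2.37 ± 0.16) rose more, with wild type means from -0.34 to -0.15 and ddm1 means from 2.21 to 2.65. The groups did not overlap in any of the 16, as in all 32 higher probe sets. The call itself favours such separation, so it is no further result about these genes. Over all probe sets groups did not overlap for 27.2%. A symbol was given for 83 of all 858 probe sets.

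**Figure D3:**
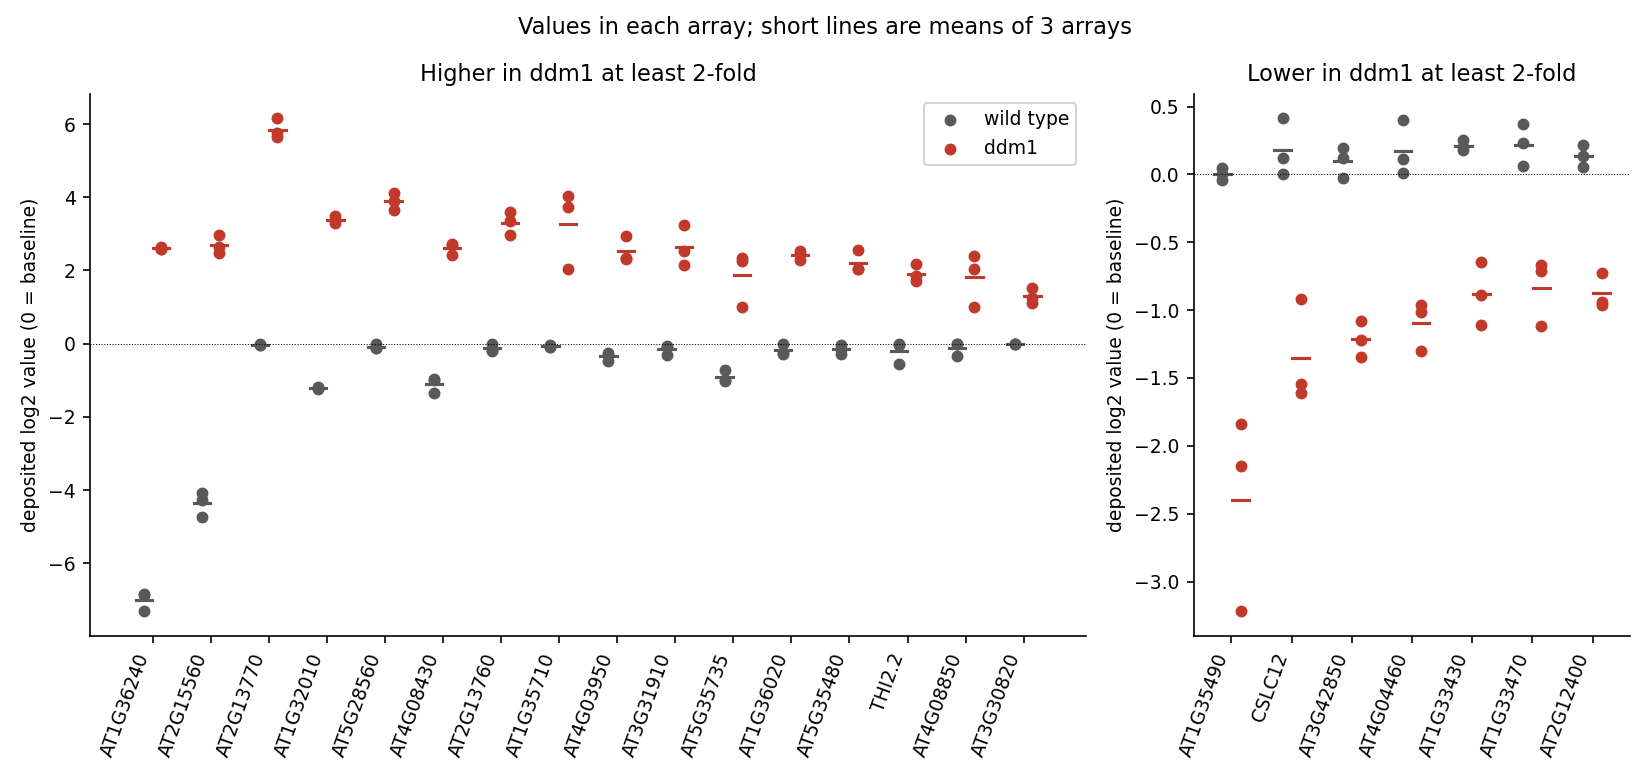
Deposited log2 values (vertical axis, 0 being the authors' baseline) in each array for the 16 genes higher and the 7 genes lower in ddm1 at least 2-fold, wild type in grey and ddm1 in red, with short lines at the means. The genotypes do not overlap at any gene, a separation that the call itself favours. The ddm1 points are widest apart at AT1G35710, with an SD of 1.08.

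Of the 7 strong falls, the deepest was at AT1G35490, a gene of the fixed anther and pollen list. It was at -0.04, 0.05 and 0.00 in wild type and at -3.22, -2.15 and -1.84 in ddm1, a fall of 5.29-fold (-2.40 ± 0.36, adjusted p = 0.0177). Leaving out wild type replicate 1, 2 or 3 ended the call (adjusted p = 0.0676, 0.0615 and 0.0626), while the difference was -2.43, -2.38 and -2.41. Its adjusted p ran from 0.00182 to 0.0819 over the 13 other fits. CSLC12, which encodes a cellulose synthase-like protein of the family that builds the glucan backbone of xyloglucan, was at 0.12, 0.41 and 0.00 in wild type and at -1.54, -1.61 and -0.91 in ddm1. It fell 2.89-fold (-1.53 ± 0.22, adjusted p = 0.0152). Leaving out wild type replicate 1 ended this call (adjusted p = 0.0594), in a range from 0.00145 to 0.0907 over the other fits.

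The other strong falls were close to 2-fold. AT3G42850 (-1.31 ± 0.09, adjusted p = 0.00105) and AT4G04460 (-1.27 ± 0.14, adjusted p = 0.00589) were the larger. AT1G33430, also of the anther and pollen list, was at 0.25, 0.20 and 0.18 in wild type and at -1.11, -0.89 and -0.65 in ddm1 (-1.09 ± 0.12, adjusted p = 0.00585). AT1G33470 (-1.05 ± 0.15) and AT2G12400 (-1.01 ± 0.08) lay just inside the 2-fold threshold, and AT1G33700 (-0.97 ± 0.17, adjusted p = 0.0288) just outside it. For AT1G33470 the call ended on dropping wild type replicate 1 (adjusted p = 0.0563) or 3 (0.0549), in a range from 0.00398 to 0.0898. AT1G33700 lost its call in 7 of 13 fits (adjusted p from 0.00718 to 0.309), among them those without wild type replicate 2 (0.0860) or 3 (0.0541) or ddm1 replicate 1 (0.0790), 2 (0.0771) or 3 (0.0692).

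The fixed lists of genes by role were drawn up when earlier results of these data were known. They were thinly measured, because the array annotation names few of their genes singly. In the anther and pollen list 3 of 7 genes were measured, all inside the blocks, of which 2 fell (AT1G35490 and AT1G33430) and 0 rose. The third, AT5G28470, stood at -0.39 ± 0.22 (adjusted p = 0.359) with ddm1 values of 0.00, -0.84 and -0.26, which overlapped with wild type. The share called lower on the whole array was 5.68%. A list drawn up with results known, and 3 genes of it measured, cannot show a trend for anther or pollen genes. Of the 12 floral and meristem regulators 2 were measured and neither was called by limma, nor at an unadjusted p under 0.05. SEU, a transcriptional co-repressor of floral homeotic genes, differed by 0.18 ± 0.21, and SAP (STERILE APETALA), a regulator of flower development, by 0.01 ± 0.03. No gene of the lists for light and plastid functions (14 genes) or housekeeping and cell cycle (14 genes) was analysed here. From the silencing machinery list, which covers the whole genome, 3 of 23 genes were measured, none of them in the blocks. Of their 5 probe sets 2 fell, at AT2G30620 (-0.35 ± 0.05, adjusted p = 0.0149) and AT1G06760 (-0.18 ± 0.04, adjusted p = 0.0492). These are too few to describe the list of 23 genes. AT2G30620 lost its call without wild type replicate 1 (adjusted p = 0.0638) or 3 (0.0589) or ddm1 replicate 2 (0.0528), and AT1G06760 without each of the 6 arrays (0.0871 to 0.139). DME, which encodes a DNA demethylase, has 3 probe sets (-0.06 ± 0.07, 0.01 ± 0.11 and 0.15 ± 0.23), none of them called by limma or at an unadjusted p under 0.05.

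Under 2-fold the called genes with a RefSeq symbol were named after their values were seen. FANCM, a helicase that limits meiotic crossovers, was at 0.00, -0.19 and -0.23 in wild type and at 0.85, 1.09 and 0.43 in ddm1, a rise of 0.93 ± 0.18 (adjusted p = 0.0369). PRK, which encodes the Calvin cycle enzyme phosphoribulokinase, rose by 0.45 ± 0.06 (adjusted p = 0.0123), and ATPC1, for the gamma subunit of chloroplast ATP synthase, by 0.26 ± 0.03 (adjusted p = 0.00928). GLR3.3, a glutamate receptor-like channel, fell by 0.55 on the log2 scale (SE 0.10, adjusted p = 0.0349). FANCM kept its call only without ddm1 replicate 3, with adjusted p from 0.0641 to 0.112 without any other array. GLR3.3 kept it only without wild type replicate 3, with 0.0748 to 0.103 otherwise. PRK lost it without wild type replicate 1 (0.0561), and ATPC1 kept it without any 1 array. In all, 16 of the 32 rises and 29 of the 36 falls were under 2-fold.

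Strong rises were found in windows poor and rich in pseudogene-type loci. Where these made up under 25% of the window, 5 of 414 probe sets rose at least 2-fold (1.21%). At 25% to under 50% it was 8 of 261 (3.07%), and at 50% and more 3 of 183 (1.64%). Over all probe sets the share was 1.67%. The 3 in the richest windows were AT1G36240, AT4G03950 and, named after its values were seen, AT3G30820 (1.31 ± 0.11). Strong falls numbered 3 (0.725%), 1 (0.383%) and 3 (1.64%) in the same classes, against 1.72% over all probe sets. Median wild type SDs were 0.0350, 0.0372 and 0.0243, and the differences between classes were not tested. When RNA genes were left out of the windows, a choice made after seeing the data, the counts were 3 of 342, 7 of 278 and 6 of 238.

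Genes close to a pseudogene-type locus that rose in ddm1 were mostly not called themselves, which held for most probe sets on the array. Within 3 loci of 107 probe sets there was a pseudogene-type probe set that rose at least 2-fold, the highest such neighbour by 1.09 to 12.15 on the log2 scale. Of these 107, 94 were not called, 6 were higher (5.61%), 7 were lower and the median difference was 0.011. Among all 858 probe sets 3.73% were higher and 4.2% lower, and among all those tested 3.5% and 5.68%. A rise of at least 2-fold was called for 5 of the 107 (4.67%), against 5 of 253 (1.98%) where the measured neighbours had not risen so far and 6 of 498 (1.2%) where none was measured. With neighbours read by plain _at probe sets only, it was 4 of 57 (7.02%), and within 1 locus 2 of 29 (6.9%). Over all probe sets 1.67% rose at least 2-fold. The shares by neighbour rest on few genes and were not tested against each other.

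**Figure D4:**
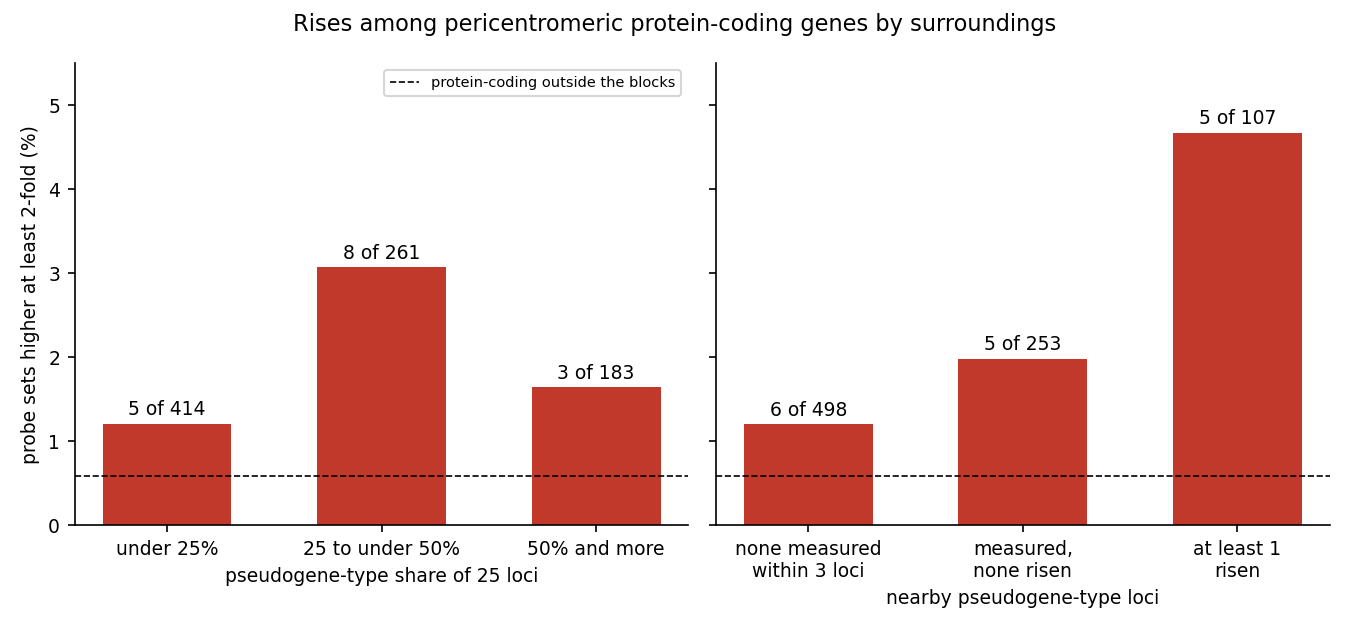
Share of pericentromeric protein-coding probe sets higher in ddm1 at least 2-fold (vertical axis, %), by the share of pseudogene-type loci around them (left) and by whether a measured pseudogene-type locus within 3 loci rose at least 2-fold (right), with counts above the bars. The bars run from 1.21% over 3.07% to 1.64% on the left and from 1.2% to 4.67% on the right, and the dashed line marks 0.587% for protein-coding probe sets outside the blocks. Over all probe sets, not drawn, the share was 1.67%.

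Individual neighbours went both ways. AT5G28560 rose beside AT5G28570 (4.59 ± 0.17), AT4G03950 beside AT4G03970 (3.78 ± 0.50, an _s_at probe set) and AT3G30820 beside AT3G30830 (5.81 ± 0.06). AT1G33430 and AT1G33470 fell on either side of AT1G33460, which rose by 5.21 ± 0.09, and AT4G04460 fell near AT4G04430 (4.01 ± 0.07). SEU was not called (adjusted p = 0.704) near AT1G43840, which rose by 7.04 ± 0.09. The protein-coding AT2G12280 differed by 0.06 ± 0.06 (adjusted p = 0.618) near 2 pseudogene-type loci, both read by _x_at probe sets, of which the higher rose by 12.15. AT2G13150 differed by 0.01 ± 0.03 (adjusted p = 0.846) near AT2G13160 (10.82), also read by an _x_at probe set, so these neighbours' values may combine loci. The last 2 genes and SEU were picked for their neighbours, after values were seen.

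Genes at the block edges were mostly not called on either side, which held for most probe sets on the array (3.5% higher and 5.68% lower). The measured gene just inside each of the 10 edges differed by -0.77 to 0.97, and 1 of 10 was called, AT1G32000. Just outside, differences ran from -0.51 to 1.75 and 1 of 10 was called, AT2G03980 beside the chromosome 2 block (1.75 ± 0.18, adjusted p = 0.00536).

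Probe set type and duplicate probe sets limit a few of these values. Of the 858 probe sets 816 were plain _at, and these held 13 of the 16 strong rises (1.59%) and all 7 strong falls. The chromosome 2 block held 21 of the 29 _s_at probe sets, 18 of them among the 27 probe sets from AT2G07660 to AT2G07790, a run where a piece of the mitochondrial genome is known to be inserted. There the values may include transcripts of the mitochondrial copies. Of these 27, 1 was called, AT2G07707 (-0.43 ± 0.05, adjusted p = 0.00943), and the median was 0.0096. For the 9 genes with 2 probe sets, 7 had neither called and 2 had 1 of 2 called. SQN, a cyclophilin that promotes microRNA activity in development, gave 0.94 ± 0.26 (adjusted p = 0.100) from one and 0.02 ± 0.03 from the other.

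Large differences without a call were few. AT1G36756 (1.77 ± 0.46), AT2G15420 (1.09 ± 0.30) and AT2G04675 (-1.32 ± 0.52) exceeded 2-fold but were not called, with ddm1 SDs of 0.924, 0.602 and 1.03. In each of them the wild type arrays lay within 0.4 of the baseline and did not overlap with ddm1. They were the only such probe sets among the 858.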

How the data were processed

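Per the labels' protocols, amplified, biotin-labelled targets from total RNA of 6 bud samples were hybridised to 1-colour arrays. GCRMA is the tool named in the submitters' processing notes (version not given in the sources used here). What the authors deposited is taken as log2, from a range of -10.0 to 8.57, and is centred for every probe set on an unstated baseline. Centring removes levels, so detection above background is unknown.

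Of 22810 probe sets 64 controls were left out. The array annotation named 1 gene for 13513 probe sets and several for 503, and 8730 were unnamed. RefSeq (assembly TAIR10.1) matched 13436 of the single-gene probe sets and gave gene types, symbols and locus order. No coordinates are printed, since the build behind the array is not stated.

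Genotypes were compared with limma 3.58.1 (lmFit, eBayes) in R 4.3.3 on all 22746 probe sets, two-sided, with genotype as the only term. Summaries and figures used Python 3.11.15. The fit was tested on simulated data with normal noise, independent between arrays. It recovered 77% of 100 changes of 1 log2 unit and 100% of 100 changes of 3. There were 6 false calls among 22746 probe sets. Some real 2-fold changes may therefore be missing from the calls. The 3 arrays per genotype limit the precision. The genes and lists were chosen with earlier results of these data known. Named are the 15 steepest rises and up to 15 deepest falls of at least 2-fold, up to 4 measured genes of each of 7 lists (95 genes, 9 measured) and the 2 called genes nearest to 2-fold on each side.

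Alternatives left out each array, added the replicate number as a block, and changed the scaling, variance model, weights, probe set type, block width or threshold. Deviations from the genotype means correlated at 0.0159 to 0.0900 between arrays of the same number and at -0.0907 to 0.0229 between the others. These values do not settle whether the numbers pair the arrays, and the main fit did not pair them.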

Additional observations from a re-analysis of the deposited data

How the results depend on the processing

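No named gene's call turned direction in the alternatives run. Of the 22 named genes called at least 2-fold, 13 kept their call in each alternative that measured them, 11 higher and 2 lower. Of these 13, 3 (AT2G13770, AT1G32010 and AT2G13760) have no plain _at probe set and drop out of that alternative. Over 32 named probe sets there were 445 values, of which 367 were on the same side as reported, 77 no longer passed and 1, AT5G28470 with array weights, newly passed. When any 1 array was dropped, the higher probe sets numbered 17 to 36 and the lower 15 to 21, with 13 to 18 and 4 to 8 of at least 2-fold, and medians of -0.0034 to 0.019. It gave 3 to 4 strong rises in pseudogene-rich windows and 152 to 172 at pseudogene-type loci. Whether replicate numbers pair the arrays is not given by the labels. With a replicate block 17 were higher and 10 lower, 2 of the latter at least 2-fold, and all of these were among the 32 and 36. The block ended the calls of AT4G04460 (adjusted p = 0.0690) and AT1G33430 (0.0542), which passed in the 12 other fits. Without variance moderation it was 17, 8 and 4, at an adjusted p under 0.01 it was 16, 6 and 4, and with array weights 70 were higher and 103 lower. The weight was 5.59 for ddm1 replicate 2, against 0.383 and 0.317 for ddm1 replicates 1 and 3. The weighted fit thus rests largely on 1 mutant array. Quantile normalization, which treats centred differences as levels, left 12 lower, 2 of them at least 2-fold. Restricting the genes to pseudogene-rich windows left 6 higher and 8 lower, 3 and 3 at least 2-fold, because fewer probe sets were counted. Windows without RNA genes, chosen after seeing the data, raised the strong rises in rich windows from 3 to 6. Plain _at probe sets left 85 of 165 strong rises at pseudogene-type loci, and the share fell from 23.5% to 15.2%. A neighbourhood of 1 locus left 2 of 5, among 29 probe sets in place of 107. Elsewhere the cause was not tested. Signal over background is unknown.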
